A study of Mus musculus with 12 samples.

Results

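The 52 genes described here encode ribosome biogenesis factors, the proteins that transcribe, modify, cut and assemble ribosomal RNA on its way to a finished ribosome. They were read from a count table of 78298 gene identifiers by their mouse symbols. All 52 were among the 22190 identifiers that passed the filter on low counts. The genes were chosen by what they do, with no threshold on a value, but with tumour-normal differences of these same libraries known. Their levels and the number that passed a test are therefore a description, to be read beside the share of all tested genes that passed the same test.

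The study sequenced RNA from mouse lung in 4 groups of 3 libraries each. Pieces were cut by hand either from visible tumours, which the labels call LLC, or from the normal lung next to them, and each kind of tissue came from a VEH arm or an HDM arm. HDM is house dust mite, an inhaled allergen, according to the series title; VEH and LLC are not spelled out in the labels, and strain, age, sex, dose and timing are not given there. All normal pieces came from beside tumours, so no group is lung without a tumour. A group is named below by its tissue and then its arm, and replicates 1 to 3 are those of the titles. Nothing in the labels says that replicates came from different animals, so p-values measure the spread between these pieces of tissue, which may be partly technical.

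Ribosome production starts in the nucleolus, where RNA polymerase I copies the ribosomal DNA into a long precursor. Small nucleolar ribonucleoproteins (snoRNPs) guide methylation and pseudouridylation of that precursor, the small subunit processome folds and cuts its first part, and a separate set of factors builds the large subunit from the rest. Growing cells spend much of their energy on this pathway, and the transcription factor Myc is known to drive many of its genes through the E-box, the sequence CACGTG.

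Of the 52 genes, 46 had at least 1 promoter in the RefSeq table, which spans 250 bases before to 50 bases after each start, and 10 of these 46 (21.7%) carried CACGTG. The motif reads the same on both strands, so a search of either strand finds it. Among all tested protein-coding genes with a promoter there, 1284 of 11659 (11.01%) carried it. The 10 genes were Pus1, Pus7, Utp4, Wdr43, Utp18, Utp20, Ltv1, Tsr1, Pes1 and Nop2; in 8 of them every copy began 3 to 38 bases after the RefSeq start. Fbl, Npm1, Nol6, Rrp12, Bop1 and Rrs1 were not matched. The stretches below belong to the 4 genes of the 10 with the largest tumour-normal difference, each is 30 bases long, and capitals mark the E-box. The sequences are those of RefSeq (GRCm38.p6), and their positions are from an exact match to GRCm39.
Pus7, chr5:23988664-23988693, minus strand: ggcgcagcgccgCACGTGtgcgagcccggc
Utp20, chr10:88662627-88662656, minus strand: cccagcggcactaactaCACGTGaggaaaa
Nop2, chr6:125108774-125108803, plus strand: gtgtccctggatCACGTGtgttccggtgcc
Utp4, chr8:107620275-107620304, plus strand: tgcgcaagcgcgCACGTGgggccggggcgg
In GENCODE M39 the Pus7, Utp20 and Utp4 stretches lie in an untranslated exon of the gene itself. The Utp20 stretch also lies within the long noncoding gene Gm66022 and the Utp4 stretch within Chtf8, both on the other strand, while no annotated feature overlaps the Nop2 stretch, whose motif began 60 bases before the start. Counted from the canonical GENCODE start instead, the Utp20 and Nop2 stretches begin 43 bases after and 46 bases before it, but the Utp4 stretch begins 461 bases and the Pus7 stretch 4562 bases after it. Pus7 has 2 RefSeq starts, and the promoter of the other one did not hold the motif. A match describes these letters and was not tested as a binding site.

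RNA of nearly all of these genes made up a larger share of the tumour libraries than of the normal ones. The summed level of the 52 genes ran from 1675 to 2557 CPM (counts-per-million) in the 6 normal libraries and from 5094 to 6076 CPM in the 6 tumour libraries, so the ranges were far apart. Under VEH, 50 of 52 genes were called higher in tumours and 0 lower, beside 18.2% of all tested genes called higher and 20.6% called lower. Under HDM, 51 of 52 were called higher and 0 lower, beside 23.0% and 28.9% of all genes. A call means an adjusted p below 0.05 in the edgeR quasi-likelihood test over all 22190 genes. The median log2 difference over the 52 genes was 1.499 under VEH and 1.59 under HDM, and over all tested genes it was -0.11 and -0.08. The lowest tumour library lay above the highest normal library for 48 of 52 genes under VEH and for 51 of 52 under HDM, where 23.9% and 29.6% of all genes did so.

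**Figure D1:**
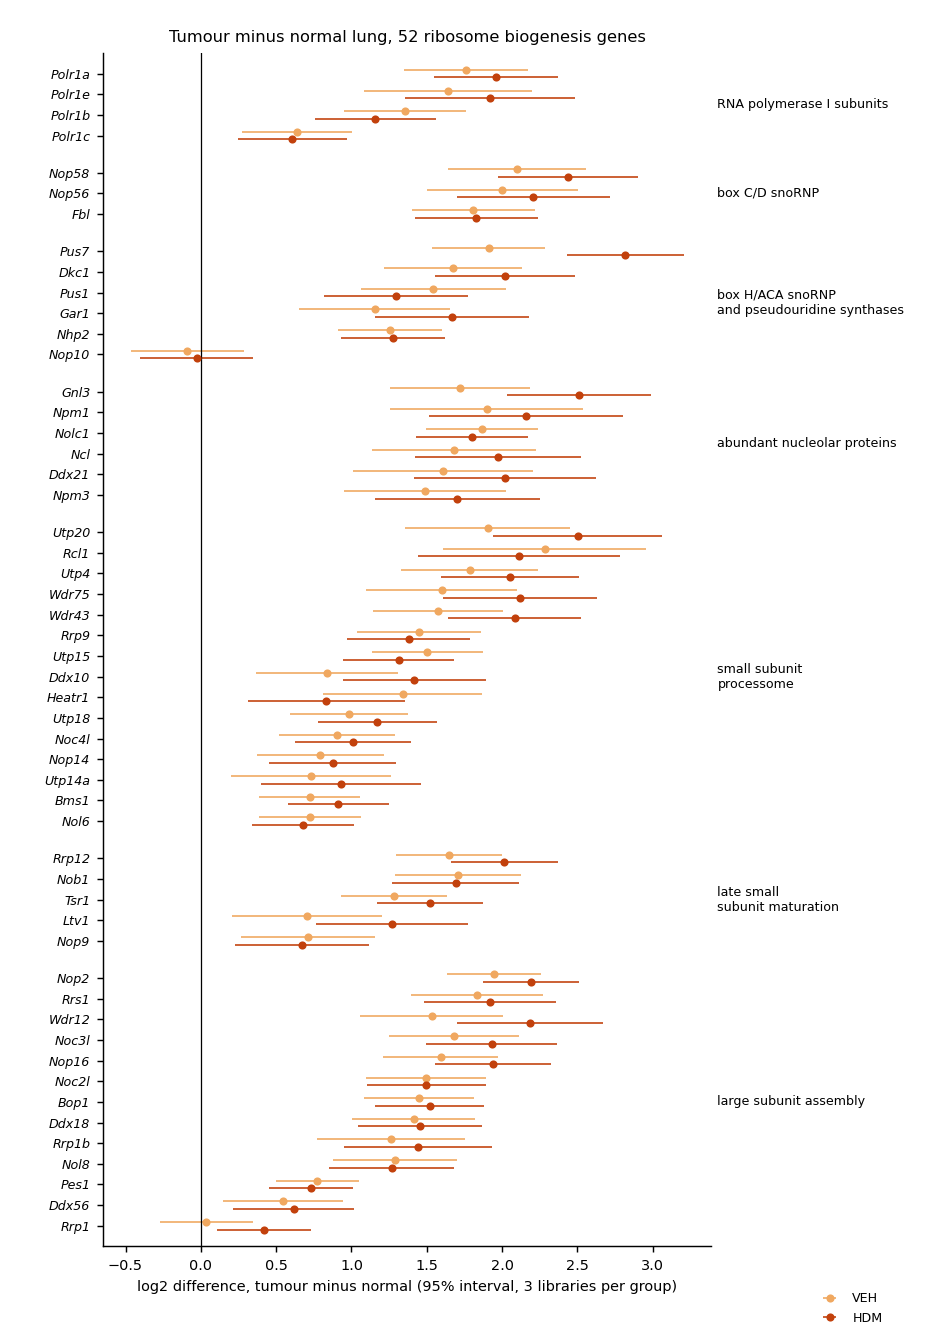
Log2 difference between tumour and normal lung (x axis) for each of the 52 genes (y axis), sorted by role. Points are estimates under VEH and under HDM, and bars are 95% intervals from the fit over all 12 libraries, 3 per group. Nop10 sits at 0 in both comparisons and Rrp1 at 0 under VEH, and every other gene lies to the right of 0.

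Values in CPM are scaled between libraries, so they are shares of the RNA and not amounts per cell. In bulk tissue, fewer cells that make a transcript and less of it in each cell cannot be told apart. The tumour pieces also held a larger share of cell cycle RNA: the 16 genes of a cell cycle list (Mki67, Top2a, Mcm2 and others) summed to 207 to 456 CPM in normal and 1295 to 2266 CPM in tumour libraries, with none at 0 in any library, and 16 of 16 were called higher in both comparisons. Summed markers of other cell types also shifted. Endothelial genes (10) summed to 1836 to 4066 CPM in normal and 134 to 693 CPM in tumour libraries, alveolar epithelial genes (10) to 17961 to 46911 and 109 to 9140 CPM, and airway epithelial genes (8) to 26217 to 115985 and 19.5 to 21129 CPM, with 2 airway genes at 0 in tumour HDM replicate 3. Fibroblast genes (7) summed to 855 to 3121 CPM in normal and 5438 to 13912 CPM in tumour libraries, with 1 of them at 0 in that same library. Genes of all leukocytes (5) overlapped, at 218 to 1193 CPM in normal and 332 to 835 CPM in tumour libraries. Macrophage genes (8) summed to 179 to 774 and 955 to 1560 CPM, and B cell genes (6) to 37.6 to 127 and 5.06 to 22.4 CPM. T cell genes (6) summed to 10.4 to 33.3 CPM in normal libraries. In tumours they differed by arm, at 43.7 to 70.4 CPM under VEH and 1.61 to 15.6 CPM under HDM. The part of these shifts in cell make-up in the values below was not tested.

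Libraries held between 20608682 and 32765364 counts. Normal VEH replicate 2 and tumour VEH replicate 2 stood apart from the other libraries of their groups. The first had the highest level in its group for 42 of the 52 genes, along with the highest cell cycle sum of the normal libraries (456 CPM; the others 207 to 235). Tumour VEH replicate 2 had the lowest level in its group for 30 of the 52, along with 9140 CPM of alveolar and 21129 CPM of airway epithelial markers, where the other 5 tumours had at most 2768 and 6571 CPM. Without both, 49 of the 52 genes were called higher under VEH and their median log2 difference was 1.74. Over the whole table that fit called 9628 genes in either direction, beside 8624 with all 12 libraries, and the median of all genes was -0.09. This check was added after seeing the data.

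**Figure D2:**
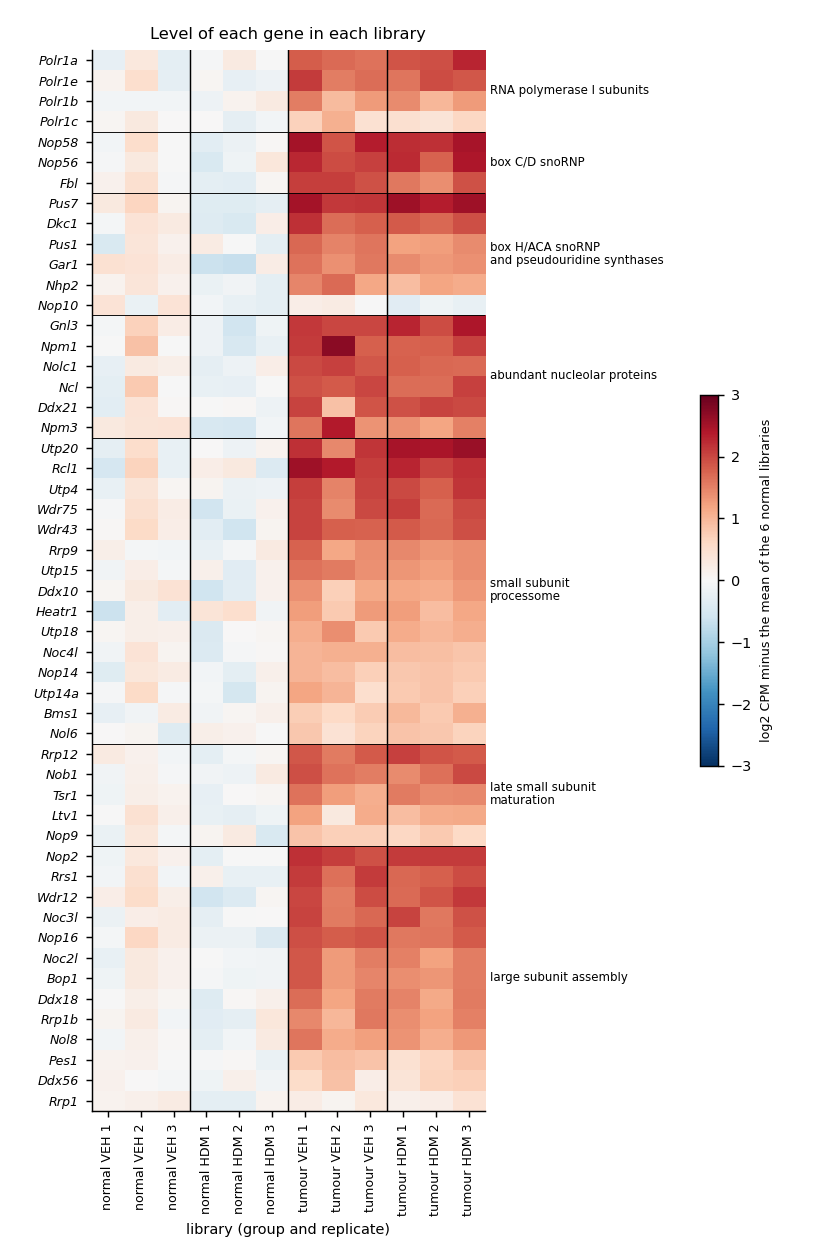
Level of each of the 52 genes (rows, by role) in each of the 12 libraries (columns), coloured by log2 CPM minus the mean of the 6 normal libraries for that gene. The 6 tumour columns are red for nearly every gene, the Nop10 and Rrp1 rows stay pale, and normal VEH replicate 2 is redder than the other normal columns.

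RNA polymerase I is the enzyme that makes the ribosomal RNA precursor, and 4 of its subunit genes are in the list. All 4 were called higher in tumours under both treatments, with medians of 1.498 and 1.54 on the log2 scale. Polr1a, the largest catalytic subunit, was at 23.5, 34.3 and 22.6 CPM in normal VEH, 27.1, 33.6 and 27.5 in normal HDM, 96.9, 89.5 and 86.0 in tumour VEH, and 103, 105 and 135 in tumour HDM. Tumour and normal libraries were far from overlapping, and the log2 difference was 1.76 ± 0.19 (SE) under VEH and 1.96 ± 0.19 under HDM. Polr1c, a subunit that RNA polymerase I shares with RNA polymerase III, showed 48.7, 57.0 and 47.4 CPM in normal VEH, 47.6, 38.7 and 44.0 in normal HDM, 75.6, 97.9 and 64.7 in tumour VEH and 64.9, 61.0 and 72.3 in tumour HDM. Its difference was the smallest of the 4, 0.64 ± 0.16 (adjusted p = 0.012) and 0.61 ± 0.16 (adjusted p = 0.011), and the groups again did not overlap; both calls were lost with the library-name prefix as a block (adjusted p = 0.053 and 0.082). Polr1b, the second catalytic subunit, differed by 1.35 and 1.16, and Polr1e, a subunit specific to RNA polymerase I, by 1.64 and 1.92.

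Because these differences were unequal, the balance of the counted subunit RNAs differed as well. Polr1c overlaps Yipf3 on the opposite strand, and the share of Yipf3 reads in its count was not measured. Per kb of gene length, Polr1c stood at 10.1 ± 1.28 (SD, n = 3) times Polr1a in normal VEH and 7.83 ± 1.64 times in normal HDM, against 4.56 ± 0.986 in tumour VEH and 3.04 ± 0.245 in tumour HDM. The lengths are those deposited with the counts, which sum every annotated exon, so a gene with long alternative exons gets a level per kb that is too low. A ratio of the same pair between groups does not depend on the lengths. No test was run on such ratios.

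The box C/D snoRNP methylates ribosomal RNA; its methyltransferase is fibrillarin (Fbl), and Nop56 and Nop58 form its core. This was the group with the largest median difference, 2.002 under VEH and 2.21 under HDM, and 3 of 3 genes were called higher in both comparisons. Fbl was at 45.0, 57.6 and 40.1 CPM in normal VEH, 33.4, 33.1 and 42.7 in normal HDM, 173, 173 and 155 in tumour VEH, and 124, 108 and 156 in tumour HDM. Its log2 difference was 1.81 ± 0.19 and 1.83 ± 0.19, about 3.5-fold in each arm. Nop56 had 29.2, 37.0 and 30.1 CPM in normal VEH, 22.1, 27.4 and 38.2 in normal HDM, 145, 117 and 124 in tumour VEH, and 141, 103 and 161 in tumour HDM.

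Nop58 had 25.8, 38.95 and 26.7 CPM in normal VEH, 21.9, 24.2 and 27.9 in normal HDM, 152, 101 and 139.7 in tumour VEH, and 125, 124 and 151 in tumour HDM. No tumour library came near a normal one, and the log2 difference of 2.10 ± 0.21 and 2.44 ± 0.21 was among the 5 largest of the 52 genes. Nop56 differed by 2.002 ± 0.23 and 2.21 ± 0.23. These partner proteins bind side by side in the particle, and their RNAs kept much the same ratio: Nop58 per Nop56, per kb, averaged 0.36 ± 0.037 in normal VEH, 0.33 ± 0.050 in normal HDM, 0.39 ± 0.051 in tumour VEH and 0.39 ± 0.066 in tumour HDM (SD, n = 3). Fbl per Nop56 varied more, at 1.44 ± 0.12 in normal VEH, 1.24 ± 0.20 in normal HDM, 1.27 ± 0.15 in tumour VEH and 0.94 ± 0.085 in tumour HDM.

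The box H/ACA snoRNP turns uridines into pseudouridines with the enzyme dyskerin (Dkc1) and the small proteins Gar1, Nhp2 and Nop10; Pus1 and Pus7 are pseudouridine synthases that work without a guide RNA. In this group 5 of 6 genes were called higher in both comparisons (medians 1.40 and 1.48), and Nop10 was the exception in each. Nop10 was at 51.3, 33.7 and 51.7 CPM in normal VEH, 36.4, 33 and 31.5 in normal HDM, 44.3, 45.7 and 38.4 in tumour VEH, and 30.7, 35.2 and 33 in tumour HDM. Tumour and normal libraries overlapped, with differences of -0.09 ± 0.17 (adjusted p = 0.69) and -0.03 ± 0.17 (adjusted p = 0.90); scaling by library size only gave 0.052 and 0.15. Dkc1 differed by 1.68 and 2.02, Gar1 by 1.15 and 1.67 and Pus1 by 1.54 and 1.296.

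Nhp2, the most abundant of the 6 per kb, was at 35.1, 42.2 and 35.5 CPM in normal VEH, 28.3, 30.2 and 26.7 in normal HDM, 89.9, 107 and 72.5 in tumour VEH, and 62.2, 74.1 and 70.1 in tumour HDM. Its difference was 1.25 ± 0.16 and 1.27 ± 0.16, with no overlap. Dkc1 and Nop10 belong to the same particle, and the ratio of their RNAs was not the same in the tissues. Nop10 per Dkc1, per kb, was 6.19 ± 2.16 in normal VEH and 6.12 ± 1.64 in normal HDM, against 1.79 ± 0.36 in tumour VEH and 1.42 ± 0.17 in tumour HDM (SD, n = 3). The lowest normal library, normal VEH replicate 2, had 3.85 and the highest tumour library, tumour VEH replicate 2, had 2.18; these are the libraries that stood apart.

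Pus7 had the largest average difference of all 52 genes. Its level was 14.2, 18.1 and 12.3 CPM in normal VEH and 9.09, 8.99 and 9.65 in normal HDM. In tumours it was 65.8, 50.5 and 51.4 CPM under VEH and 67.5, 60.0 and 68.0 under HDM. All 3 normal HDM libraries lay below all 3 normal VEH libraries, and all tumours lay far above both. The log2 difference between tumour and normal was 1.91 ± 0.17 under VEH, or 3.76-fold, and 2.82 ± 0.18 under HDM, or 7.05-fold.

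**Figure D3:**
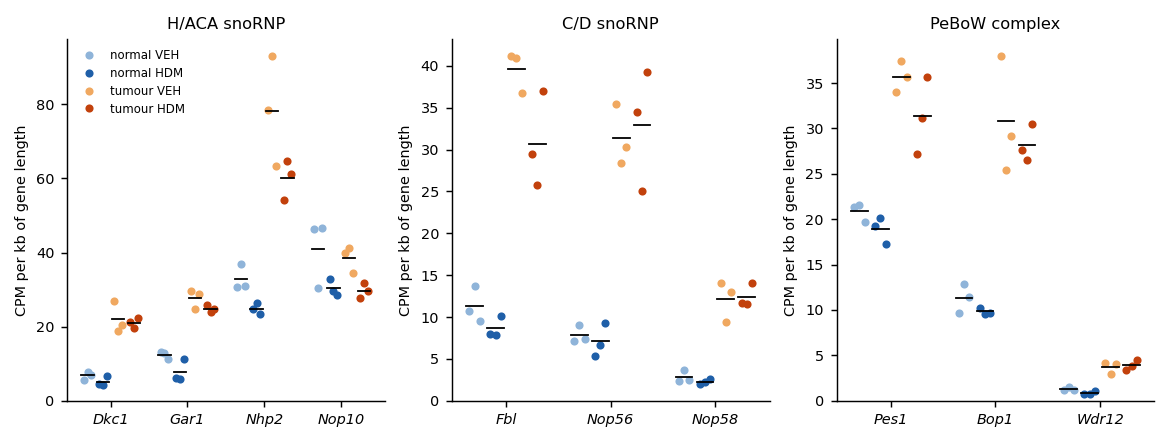
CPM per kb of gene length (y axis) of the genes of the H/ACA snoRNP, the C/D snoRNP and the PeBoW complex; each point is a library, colours are the 4 groups and black lines are means of 3 libraries. Tumour points lie above normal points for every gene shown except Nop10, whose 4 groups overlap.

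Nucleolin (Ncl) and nucleophosmin (Npm1) are among the most abundant proteins of the nucleolus, and Npm3, Nolc1, Gnl3 and Ddx21 work there with them. All 6 genes were called higher in tumours in both comparisons, with medians of 1.70 and 1.995. Ncl was at 216, 451 and 263 CPM in normal VEH, 225, 221 and 259 in normal HDM, 989.8, 941 and 1047 in tumour VEH, and 835, 833 and 1093 in tumour HDM. Normal VEH replicate 2 was the highest normal library and still below every tumour, and the difference was 1.68 ± 0.25 and 1.97 ± 0.25. Npm1, a histone chaperone that also carries ribosomal particles, had 206, 381 and 204 CPM in normal VEH, 187, 147 and 176 in normal HDM, 877, 1352 and 715 in tumour VEH, and 708, 719.8 and 849.7 in tumour HDM.

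For Npm1 the library that stood apart was the highest in both VEH groups, and the difference was 1.90 ± 0.29 and 2.16 ± 0.29. Per kb, Npm1 was the most abundant of the 52 genes, at 204 CPM per kb over all 12 libraries, followed by Ncl at 60.3, Nhp2 at 49.0 and Rrp1 at 48.1, and Wdr12 was the lowest at 2.44. Gnl3 (nucleostemin), a GTP-binding protein of proliferating cells, was at 15.9, 26.7 and 19.1 CPM in normal VEH, 14.8, 11.1 and 15.1 in normal HDM, 71.5, 65.7 and 65.6 in tumour VEH, and 80.9, 64.2 and 88.6 in tumour HDM. That is a difference of 1.72 ± 0.21 and 2.51 ± 0.22, with no overlap. Npm3 differed by 1.49 and 1.70, the helicase Ddx21 by 1.61 and 2.02, and Nolc1, which shuttles between nucleolus and Cajal bodies, by 1.87 and 1.80.

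The small subunit processome is the large particle that forms on the first part of the precursor, and 15 of its genes are in the list. All 15 were called higher in tumours in both comparisons (medians 1.34 and 1.31), and the spread between them was wide, from 0.72 to 2.28 under VEH and from 0.68 to 2.502 under HDM. Wdr43, of the subcomplex that joins the precursor first, was at 33.6, 49.0 and 37.4 CPM in normal VEH, 26.4, 21.5 and 34.8 in normal HDM, 133, 113 and 111 in tumour VEH, and 117, 108 and 125 in tumour HDM. Its difference was 1.57 ± 0.20 and 2.08 ± 0.20. The other 4 genes of that subcomplex differed by 1.78 and 2.05 (Utp4), 1.503 and 1.31 (Utp15), 1.60 and 2.12 (Wdr75), and 1.34 and 0.83 (Heatr1).

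Utp20, a very large scaffold protein, and Rcl1, which resembles RNA cyclases, had the largest average differences of the processome. Utp20 was at 17.5, 30.6 and 18.1 CPM in normal VEH, 21.4, 19.2 and 23.0 in normal HDM, 96.9, 57.6 and 93.9 in tumour VEH, and 117, 115 and 128 in tumour HDM. The 3 tumour HDM libraries lay above the 3 tumour VEH libraries, of which replicate 2 was the lowest, and the difference from normal was 1.91 ± 0.25 and 2.502 ± 0.25. Rcl1 was at 6.65, 14.9 and 8.04 CPM in normal VEH, 10.9, 11.55 and 7.07 in normal HDM, 54.9, 49.4 and 40.1 in tumour VEH, and 45.8, 38.7 and 43.4 in tumour HDM.

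Rcl1 differed by 2.28 ± 0.31 and 2.11 ± 0.30, or 4.87-fold and 4.33-fold. At the low end were Nol6 (0.73 and 0.68), Bms1, a GTPase that recruits Rcl1 (0.72 and 0.91), Utp14a (0.73 and 0.93) and Nop14 (0.79 and 0.88). Between these ends were Rrp9 (1.45 and 1.38), the helicase Ddx10 (0.83 and 1.42), Utp18 (0.98 and 1.17) and Noc4l (0.90 and 1.008). The VEH call of Utp14a (adjusted p = 0.034) was lost without normal VEH replicate 1, normal VEH replicate 3, tumour VEH replicate 1 or tumour VEH replicate 2, with adjusted p from 0.073 to 0.11.

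Late steps of the small subunit run from the nucleus into the cytoplasm, and their 5 genes were called higher in tumours in both comparisons, with medians of 1.28 and 1.52. Tsr1, a GTPase-like factor of the late precursor, was at 35.3, 43.3 and 41.5 CPM in normal VEH, 32.6, 39 and 40.1 in normal HDM, 119, 91.6 and 81.9 in tumour VEH, and 114, 102 and 105 in tumour HDM. The difference was 1.28 ± 0.16 and 1.52 ± 0.16, with no overlap. Ltv1, which holds the maturing head of the small subunit, was at 19.4, 27.0 and 21.7 CPM in normal VEH, 16.7, 16.2 and 17.8 in normal HDM, 45.4, 23.8 and 41.9 in tumour VEH, and 37.1, 42.2 and 42.9 in tumour HDM.

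Tumour VEH replicate 2 fell within the normal range of Ltv1, so that the groups overlapped under VEH, with a difference of 0.70 ± 0.23 (adjusted p = 0.031); under HDM it was 1.27 ± 0.23 (adjusted p = 0.0013). The VEH call ended without normal VEH replicate 1 or 3 or tumour VEH replicate 1 or 3, with adjusted p from 0.073 to 0.10. Nob1, the endonuclease that makes the final cut of the small subunit RNA, differed by 1.71 and 1.69, Rrp12, an export factor, by 1.65 and 2.02, and Nop9 by 0.71 and 0.67; the VEH call of Nop9 (adjusted p = 0.019) was lost without normal VEH replicate 1 (adjusted p = 0.072) or 3 (0.065).

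Large subunit assembly is represented by 13 genes, of which 12 were called higher under VEH and 13 under HDM (medians 1.45 and 1.498). Rrs1, which helps bring the 5S RNA particle into the subunit, was at 28.2, 42.0 and 28.4 CPM in normal VEH, 33.3, 25.8 and 25.6 in normal HDM, 129, 94.4 and 128 in tumour VEH, and 99.2, 104 and 117 in tumour HDM. The difference was 1.83 ± 0.20 and 1.92 ± 0.20. Rrp1, an early factor of the large subunit, was at 159, 162 and 173 CPM in normal VEH, 119, 119.9 and 157 in normal HDM, 171, 154 and 181 in tumour VEH, and 164, 168 and 197 in tumour HDM. Under VEH the tumour and normal libraries of Rrp1 overlapped, with a difference of 0.04 ± 0.14 (adjusted p = 0.85), and under HDM they were apart by 0.42 ± 0.14 (adjusted p = 0.028), a call that ended without normal HDM replicate 1 (adjusted p = 0.10) or 2 (0.097).

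Rrp1b, the paralog of Rrp1, differed by 1.26 and 1.44, so that Rrp1b per Rrp1, per kb, was 0.044 ± 0.0069 in normal VEH and 0.049 ± 0.0050 in normal HDM, against 0.10 ± 0.013 in tumour VEH and 0.10 ± 0.0079 in tumour HDM (SD, n = 3). Ddx56, a helicase, had one of the smallest differences: 29.5, 27.3 and 25.9 CPM in normal VEH, 24.6, 30.2 and 25.0 in normal HDM, 39.8, 49.8 and 31.1 in tumour VEH, and 35.3, 43.0 and 44.0 in tumour HDM. The gap between its lowest tumour and highest normal library was small in both arms, and the difference was 0.55 ± 0.18 (adjusted p = 0.036) and 0.62 ± 0.18 (adjusted p = 0.016). The VEH call of Ddx56 was lost without any of the 3 normal VEH libraries or tumour VEH replicate 2 (adjusted p from 0.063 to 0.12), and the HDM call without normal HDM replicate 1 (0.057). Nop16, known as a target gene of Myc, was at 18.6, 29.9 and 23.0 CPM in normal VEH, 17.2, 17.1 and 14.5 in normal HDM, 74.4, 69.1 and 72.2 in tumour VEH, and 58.3, 59.7 and 69.4 in tumour HDM, a difference of 1.59 ± 0.17 and 1.94 ± 0.18.

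Pes1, Bop1 and Wdr12 form the PeBoW complex, which is needed to process the large subunit RNA. Pes1 differed by 0.77 and 0.73, Bop1 by 1.45 and 1.52, and Wdr12 by 1.53 and 2.19. Bop1 per Pes1, per kb, was 0.54 ± 0.078 in normal VEH, 0.52 ± 0.044 in normal HDM, 0.87 ± 0.22 in tumour VEH and 0.91 ± 0.094 in tumour HDM (SD, n = 3). Nop2, an RNA methyltransferase and old proliferation marker, differed by 1.95 and 2.19. The rest were Noc3l (1.68 and 1.93), Noc2l (1.49 and 1.498), the helicase Ddx18 (1.41 and 1.46) and Nol8 (1.29 and 1.27).

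The effect of HDM on these genes was asked separately in tumours and in normal lung. In tumours none of the 52 passed the test: edgeR called 0 of 52, and 2 had an unadjusted p below 0.05, where 0.0946% of all genes were called and 16.7% had an unadjusted p below 0.05. DESeq2 also called 0 of 52, while it called 1311 genes over the whole table. The log2 differences between HDM and VEH tumours ran from -0.48 to 0.54, with a median of -0.03, also -0.03 over all genes. The 2 genes were Nhp2 (-0.38 ± 0.15, unadjusted p = 0.031, adjusted p = 0.26) and Utp20 (0.54 ± 0.24, unadjusted p = 0.047, adjusted p = 0.29). For 50 of 52 genes the 95% interval of the difference lay within 1 log2 unit of 0; the interval of the median gene reached 0.41 to each side.

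In normal lung, edgeR and DESeq2 also called 0 of 52; edgeR called 0% of all genes and DESeq2 called 43 genes. The differences leaned to lower levels under HDM: 46 of 52 were below 0, with a median of -0.20 beside -0.01 over all genes, and 12 had an unadjusted p below 0.05, all lower, where 5.54% of all genes had such a p. The normal HDM libraries lay wholly below the normal VEH libraries for 10 genes and wholly above for 0, beside 5.85% and 4.47% of all genes. Those 12 were Gar1, Nhp2, Nop10, Pus7, Npm1, Npm3, Gnl3, Wdr43, Ddx10, Wdr12, Nop16 and Rrp1. The smallest p belonged to Pus7 (-0.69 ± 0.17, unadjusted p = 0.0017, adjusted p = 0.80) and Nop16 (-0.55 ± 0.17, unadjusted p = 0.0081, adjusted p = 0.86). Members come from the same 6 libraries and are not independent, and normal VEH replicate 2 bears on the lean: without it the median was -0.08. Normal VEH replicate 2 and normal HDM replicate 3 also share a name prefix with a tumour of the other treatment label. Without the 4 libraries of such prefixes, edgeR called 0 genes over the whole table between HDM and VEH in normal lung. The 0 of 52 in that fit therefore says nothing particular about these genes.

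**Figure D4:**
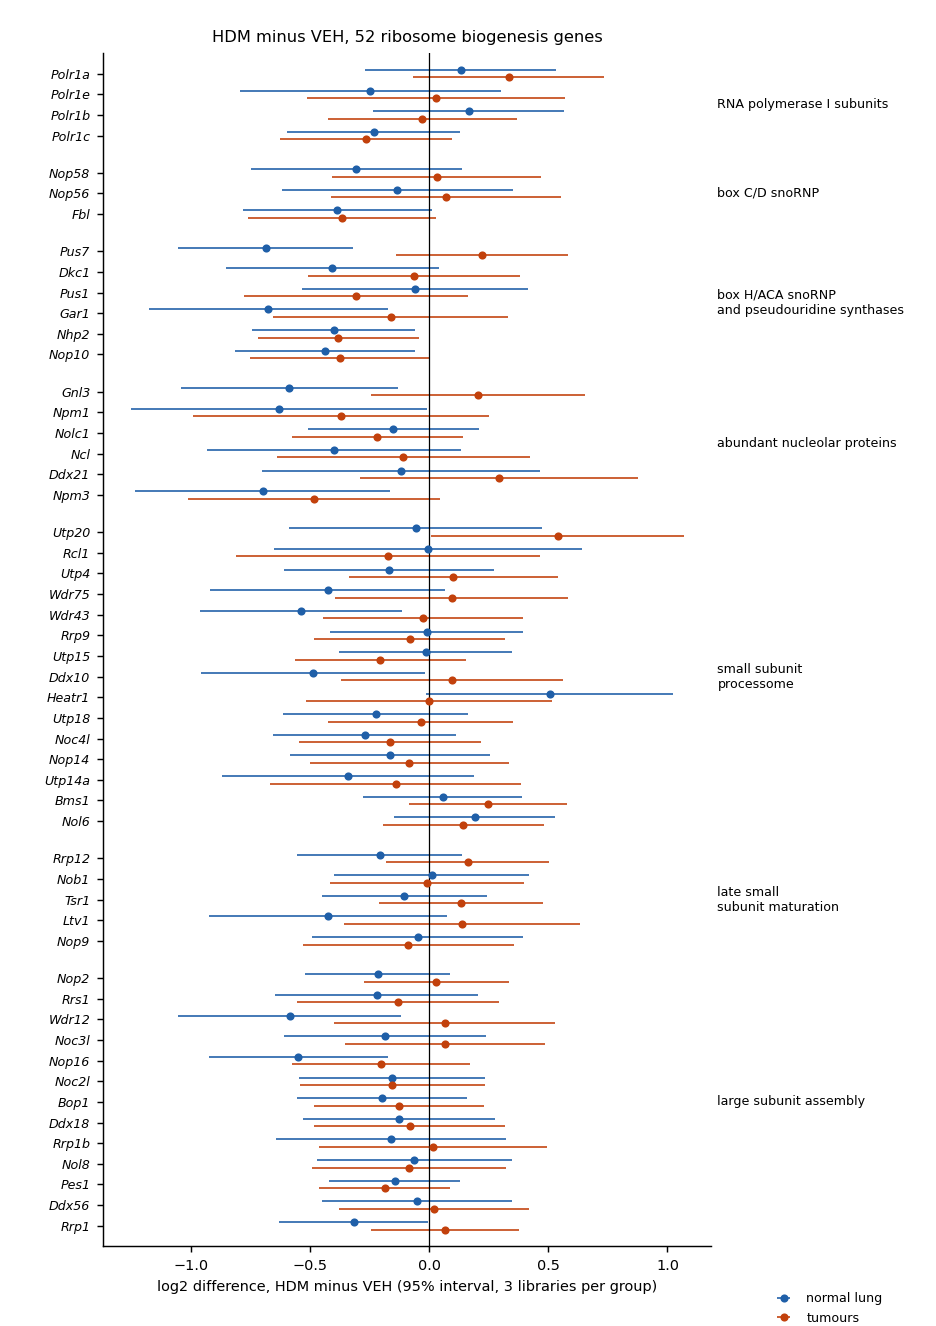
Log2 difference between HDM and VEH (x axis) for each of the 52 genes (y axis), sorted by role, in normal lung and in tumours. Points are estimates and bars are 95% intervals from the fit over all 12 libraries, 3 per group. Tumour points scatter around 0 from -0.48 to 0.54, and normal lung points lie mostly to the left of 0 with a median of -0.20.

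The interaction, which asks whether the tumour-normal difference was larger under HDM than under VEH, was called for 0 of 52 genes and 0% of all genes by edgeR, and for 0 of 52 and 222 genes in all by DESeq2. Its median was 0.19 on the log2 scale and 39 of 52 values were positive; without normal VEH replicate 2 the median was 0.063. An unadjusted p below 0.05 was found for 2 genes, Pus7 (0.91 ± 0.23, unadjusted p = 0.0026, adjusted p = 0.42) and Gnl3 (0.79 ± 0.29, unadjusted p = 0.020, adjusted p = 0.51), where 9.39% of all genes had one. The larger fold change of Pus7 under HDM was thus not shown to differ from that under VEH.

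The rest of the pathway was read from a list of 120 other ribosome biogenesis genes, taken from general knowledge. Of these, 89 rose and 2 fell in tumours under VEH, and 92 rose and 2 fell under HDM, with median log2 differences of 0.80 and 0.94. Of all tested genes, 18.2% were called higher and 20.6% lower under VEH, and 23.0% and 28.9% under HDM. By role, the counts that rose under VEH and HDM were 7 and 9 of 12 for other RNA polymerase I factors, 30 and 29 of 40 for other small subunit factors, 39 and 39 of 46 for other large subunit factors, 5 and 5 of 10 for snoRNP assembly factors, and 8 and 10 of 12 for RNA exosome genes. The largest increases were those of Mdn1, the giant ATPase that strips factors off the large subunit (1.77 ± 0.37 and 2.61 ± 0.38), Ppan (1.87 ± 0.20 and 2.17 ± 0.20) and Taf1d, a subunit of the RNA polymerase I promoter factor. Taf1d passed the test under HDM (2.80 ± 0.50, adjusted p = 0.0013) but not under VEH (1.21 ± 0.48, adjusted p = 0.066).

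The 2 genes that fell were the same under both treatments. Sbds, which releases the last blocking factor from the large subunit, was at 96.3, 100.1 and 129.7 CPM in normal VEH, 91.7, 80.2 and 89.3 in normal HDM, 57.2, 71.1 and 45.0 in tumour VEH, and 44.9, 63.7 and 57.7 in tumour HDM. Its difference was -0.91 ± 0.19 (adjusted p = 0.0050) and -0.65 ± 0.19 (adjusted p = 0.016), with no overlap in either arm. The HDM call of Sbds was lost without normal HDM replicate 3, tumour HDM replicate 1 or tumour HDM replicate 3 (adjusted p from 0.075 to 0.13). Exosc7, a core subunit of the RNA exosome, was at 30.4, 46.1 and 35.9 CPM in normal VEH, 32.4, 30.1 and 41.9 in normal HDM, 14.4, 21.1 and 15.6 in tumour VEH, and 16.3, 13.0 and 16.3 in tumour HDM. That is a difference of -1.14 ± 0.22 (adjusted p = 0.0032) and -1.19 ± 0.22 (adjusted p = 0.0015). Polr1h, a small RNA polymerase I subunit, was next in order, at 0.01 ± 0.21 and -0.14 ± 0.21, and did not pass the test in either arm.

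Myc, the main known regulator of the pathway, was at 6.24, 115 and 8.76 CPM in normal VEH and 25.8, 9.55 and 16.6 in normal HDM. Tumours had 360.2, 388 and 264 CPM under VEH and 303, 286 and 389.8 under HDM. The high normal value is that of normal VEH replicate 2, the highest library of its group for 42 of the 52 genes. In tumour HDM, Myc was highest in replicate 3, which was highest for 30 of the 52. In the remaining groups this did not hold. Tumour VEH replicate 2 had the most Myc of its group but was lowest for 30 genes and highest for 9. Normal HDM replicate 1 had the most Myc of its group but was lowest for 21 genes and highest for 12. Whether Myc and the 52 genes vary together between libraries was not tested. Myc rose in tumours by 2.95 ± 0.94 (adjusted p = 0.031) under VEH and by 4.23 ± 0.997 (adjusted p = 0.0056) under HDM. Without normal VEH replicate 2 the VEH difference was 5.49 (adjusted p = 7.4e-05), and without any 1 of the other 5 VEH libraries the adjusted p was 0.053 to 0.077. Mycl fell by 2.40 and 4.72, and its 6 tumour libraries had 0.607 to 12.6 CPM against 16.3 to 70.3 in normal lung. Mycn was scarce throughout, at no more than 5.08 CPM, and was called lower under HDM (-2.90 ± 1.008, adjusted p = 0.032) and not under VEH (-0.81 ± 0.94, adjusted p = 0.51).

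The other genes of the Myc and Max network moved in different directions. Max, with which Myc must pair to bind DNA, differed by 0.21 ± 0.13 (adjusted p = 0.20) and -0.11 ± 0.13 (adjusted p = 0.47). Among the Mxd proteins, which compete with Myc for Max, Mxd4 fell by 1.19 and 1.33 and Mxd1 by 1.02 and 1.19, while Mxd3 rose by 1.25 and 1.44. Mlx rose under VEH (0.45 ± 0.13, adjusted p = 0.024) and Mga under HDM (0.53 ± 0.20, adjusted p = 0.046), and Mnt and Mxi1 passed in neither arm. Of these, the calls of Myc, Mycl, Mxd3 and Mxd4 under HDM, and of Mxd3 and Mxd4 under VEH, survived leaving out any 1 library; Mycl lost its VEH call without normal VEH replicate 1 (adjusted p = 0.057), Mxd1 its VEH call without normal VEH replicate 2 (-0.59, adjusted p = 0.13) or any tumour VEH library and its HDM call without normal HDM replicate 1 (adjusted p = 0.056) or tumour HDM replicate 3 (0.091). Mlx lost its call without normal VEH replicate 1 (0.079) or tumour VEH replicate 2 (0.057), Mga without tumour HDM replicate 1 (0.061) or either of normal HDM replicates 1 (0.16) and 2 (0.13). Mycn lost its call without any 1 of 4 libraries, namely replicates 1 and 3 of normal HDM and replicates 2 and 3 of tumour HDM (0.073 to 0.11). None of the 11 genes was called between HDM and VEH in tumours by edgeR, with 2 at an unadjusted p below 0.05, where 16.7% of all genes had one. They were Mycl (-2.69 ± 0.68, unadjusted p = 0.0024, adjusted p = 0.16) and Max (-0.42 ± 0.13, unadjusted p = 0.0064, adjusted p = 0.19).

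**Figure D5:**
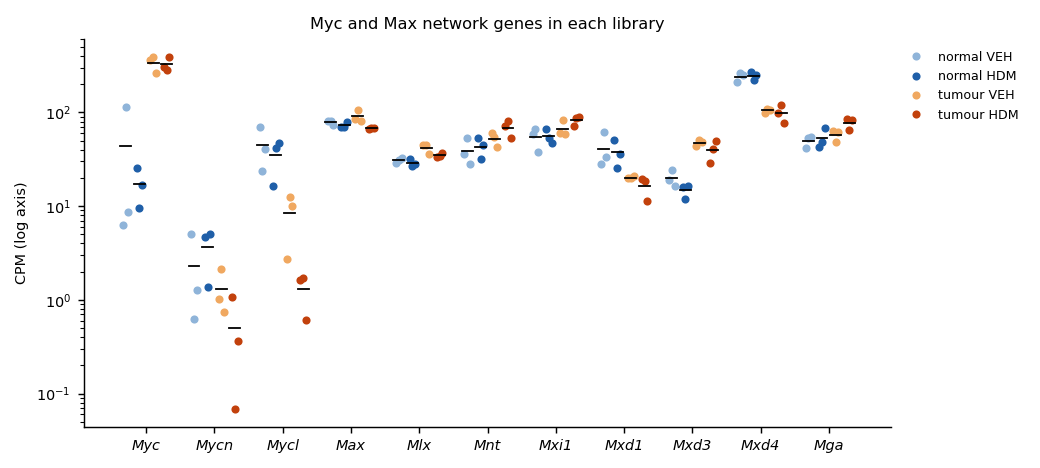
CPM on a log axis (y axis) of 11 genes of the Myc and Max network (x axis); each point is a library, colours are the 4 groups and black lines are means of 3 libraries. Tumour points of Myc lie between 264 and 389.8 CPM, above every normal point, and Max lies between 66.0 and 106 CPM in all 12 libraries.

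Blocked ribosome production is known to free Rpl5 and Rpl11, which bind Mdm2 and so stabilise the p53 protein, and RNA levels do not measure that step. Trp53 RNA rose by 1.77 ± 0.17 and 2.09 ± 0.17, from 34.1 to 51.2 CPM in the 6 normal libraries to 137 to 188 CPM in the 6 tumours. Rpl5 rose by 0.70 and 1.003 and Rpl11 by 0.54 and 0.61, with calls of Rpl11 that were lost under VEH without any 1 library except tumour VEH replicate 3 (adjusted p from 0.052 to 0.14) and under HDM without normal HDM replicate 2 (0.059). Mdm2 passed the test under HDM (0.55 ± 0.19, adjusted p = 0.029) and not under VEH (0.31 ± 0.19, adjusted p = 0.20), and its HDM call was lost without normal HDM replicate 1 (0.11) or 2 (0.066). Cdkn1a, a p53 target that halts the cell cycle, was at 1.28 ± 0.46 (adjusted p = 0.040) under HDM and 1.02 ± 0.46 (adjusted p = 0.10) under VEH, and the HDM call was lost without normal HDM replicate 2 or 3 or tumour HDM replicate 1 or 2 (0.064 to 0.11). Cdkn2a was at no more than 1.52 CPM in any library and was called lower under HDM (-2.59 ± 0.67, adjusted p = 0.0083), whereas the VEH value was -0.9995 ± 0.62 (adjusted p = 0.21).

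Some of the 52 genes also carry snoRNAs within their introns, so that a single transcript yields a ribosome factor and a guide RNA. In the GENCODE annotation 7 of 52 (13.5%) held at least 1 snoRNA gene, compared with 254 of 15074 tested protein-coding genes (1.69%) and 4 of the 120 other factors (3.33%). They were Nop56, Nop58, Ncl, Gnl3, Wdr43, Tsr1 and Dkc1, with 21 snoRNAs between them, such as Snord57 in Nop56 and Snord70 in Nop58. None of the 21 passed the filter, and 13 had no count in any library, so the snoRNAs themselves could not be compared. The host genes described above were counted over exons.

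The counts of some genes may include reads of a neighbour. Overlaps were read from GENCODE M39, which may not be the annotation behind the counts. For 19 of the 52 genes no tested gene overlapped their exons on the opposite strand. Of these 19, 17 were called higher under VEH and 18 under HDM, with medians of 1.15 and 1.46. Of all tested genes, 18.2% and 23.0% were called higher, with medians of -0.11 and -0.08. The libraries keep the strand, but the sources used here do not say whether the counting used it, so reads of overlapping genes cannot be told apart with certainty. The neighbour with the highest count relative to the gene it overlapped was Pbrm1, at 202% of the count of Gnl3. Such percentages compare counts of whole genes, and how many reads are shared was not measured. Rrp9 overlapped Parp3 (154%), Nop9 overlapped Dhrs1 (146%) and Polr1c overlapped Yipf3 (143%). Npm1 and several abundant genes also have processed copies elsewhere in the genome, and how reads with several matches were counted is not given in the sources used here.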

How the data were processed

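RNA-seq was done on 12 mouse lung libraries, 3 in each of 4 groups. Per the submitters' processing notes, reads were processed with Trim Galore, STAR, featureCounts and Subread on mm39; versions, annotation and strand setting are not given in the sources used here, and the labels name poly(A) selection or rRNA depletion without saying which. The deposited values are raw counts per gene identifier, with a gene length. Names and GRCm39 positions came from GENCODE M39 (78168 of 78298 identifiers matched; the other 130 held 0.143% of counts and stayed in the fit).

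From the counts, genes were filtered (filterByExpr, minimum count 10), scaled by TMM and tested over all 12 libraries with edgeR 4.0.16 (R 4.3.3), using a quasi-likelihood test with Benjamini-Hochberg adjustment over 22190 genes. DESeq2 1.42.0 was an alternative, and others were scaling, filters, blocks and left-out libraries. The script was tested on simulated data. CPM uses TMM-scaled library sizes. The members and lists were chosen with earlier results of these data known. Values in every library are given for the 2 most abundant members per kb of each role, the 5 largest and 3 smallest tumour-normal differences, and the 2 smallest p in each treatment comparison; other pathway genes named are the 3 largest and 3 smallest. All libraries share a labelled batch date.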

Additional observations from a re-analysis of the deposited data

How the results depend on the processing

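No member was called lower in tumours in any setting run. Members called higher ranged from 44 (library-name prefix as a block) to 50 under VEH and from 47 to 51 under HDM over the planned settings. Leaving out 1 library gave 46 to 49 and 49 to 51. Calls over the whole table, in either direction, moved as well. They numbered 8624 (VEH) and 11512 (HDM) in the main fit and 5783 and 8631 with the prefix block. The prefix block ended the VEH calls of Polr1c, Utp14a, Bms1, Ddx10, Ltv1 and Ddx56 (adjusted p from 0.053 to 0.11) and the HDM calls of Polr1c (0.082), Utp14a (0.085), Nop9 (0.076) and Ddx56 (0.12). Other settings ended calls of Utp14a, Ltv1, Ddx56 and Nop9 under VEH and of Rrp1 and Ddx56 under HDM. The median under VEH was 1.73 without the 4 libraries whose name prefix joins different treatment labels and 1.74 without both libraries that stand apart (chosen after seeing the data). Under HDM it was 1.76 with scaling by library size only, 1.46 with at least 10 counts in every library, 1.88 without those 4 libraries, and 1.53 to 1.87 when 1 library was left out, the highest without normal HDM replicate 3. Scaling by library size only moved the median of all genes from -0.11 to 0.03 (VEH) and from -0.08 to 0.10 (HDM). Of the other 120 genes, 0 fell under VEH and 1 under HDM without the 4 libraries, 1 to 2 (Exosc7 always, Sbds not always) fell under HDM when 1 library was left out, and 74 to 85 (VEH) and 82 to 100 (HDM) rose. DESeq2 called 2 of them lower between HDM and VEH tumours, where edgeR called 0. The causes were not tested.

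Sign changes were those of genes that were not called. Nop10 under VEH became 0.052 with scaling by library size only, and -0.09 became 0.0044, 0.012 and 0.077 without normal VEH replicate 1, normal VEH replicate 3 and tumour VEH replicate 3. Under HDM it became 0.15 with library size only and -0.042 to 0.13 without single libraries (above 0 at 0.031, 0.035, 0.13, 0.030 and 0.11). Rrp1 under VEH became -0.046 with at least 10 counts in every library and -0.079 with the prefix block. Of 720 values of single named genes under alternatives, 682 kept their side of the threshold and direction, 26 lost the call and 12 changed sign.

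With the replicate number as a block, 48 members were called higher under VEH (Utp14a and Ltv1 were lost) and 51 under HDM. Samples with the same number did not deviate together (correlations of -0.42 to 0.31), and the numbers were not taken to pair the samples. Each name prefix is shared by a normal and a tumour library, and these had correlations of -0.26 to 0.23. Low correlations between pieces that differ in cell make-up cannot decide whether libraries sharing a prefix are paired. Normal VEH replicate 2 has the same prefix as tumour HDM replicate 2, as do normal HDM replicate 3 and tumour VEH replicate 3. With 3 libraries per group, the 95% interval of a treatment difference reached 0.41 on the log2 scale to each side for the median member.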

Other observations

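The ribosome's own proteins, counted after their values were seen, also differed between tumour and normal lung. Of 78 cytosolic ribosomal protein genes, 60 were called higher and 0 lower under VEH, and 69 higher and 0 lower under HDM, with median log2 differences of 0.76 and 0.84. Over all tested genes, 18.2% were called higher and 20.6% lower under VEH, and 23.0% and 28.9% under HDM. Of 78 mitochondrial ribosomal protein genes, 25 were called higher and 2 lower under VEH, and 38 higher and 2 lower under HDM, with medians of 0.36 and 0.45. Between HDM and VEH, edgeR called none of the cytosolic genes in tumours (25 of 78 at an unadjusted p below 0.05, median -0.33, beside 16.7% and -0.03 over all genes) or in normal lung (36 of 78, median -0.42, beside 5.54% and -0.01). Whether the size of the difference itself differs between these sets was not tested.

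The E-box share of the 120 other ribosome biogenesis genes was 18 of the 97 that had a promoter in the RefSeq table (18.6%), next to 10 of 46 (21.7%) for the 52 genes and 11.01% for all tested protein-coding genes. These shares are descriptions of the promoters and were not tested.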
